A study of Homo sapiens with 60 samples.

Results

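The 9 genes described here make up the core of the MHC class I antigen presentation pathway: HLA-B, HLA-C, B2M, TAP1, TAP2, TAPBP, PSMB8, PSMB9 and NLRC5. They were taken by symbol from a deposited table of 60675 genes, in which each of the 9 matched 1 Ensembl gene. The table covers 60 RNA sequencing libraries of HT29, a cell line from a human colorectal adenocarcinoma, harvested after 24 h with a herbal extract or with vehicle. All cells were the 1 line, in culture medium with serum, and the labels name no cytokine.

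The extract groups were as follows. Sayeok-tang and Bojungikgi-tang, which are herbal formulas, were given as water extracts, with n = 3 libraries a dose for Sayeok-tang and n = 2 for Bojungikgi-tang. Scutellariae Radix, the root of Scutellaria, Pinelliae Tuber, and 2 forms of ginger, fresh (Zingiberis Rhizoma Recens) and dried (Zingiberis Rhizoma), were given as 70% ethanol extracts with n = 3 libraries a dose. These 6 extracts were used at 20, 100 and 500 µg/mL, called the low, medium and high dose. Zizyphi Fructus was given at the same doses and Coptidis Rhizoma at 12.8, 64 and 320 µg/mL, both as ethanol extracts, with 1 library a dose each. The controls were 3 libraries with vehicle, which the labels give as 0.1% DMSO and the series text as 2%. Nothing in the labels places replicates in cultures of their own, and the spread behind each p-value, that between libraries, may be technical. Library codes put vehicle in a set of its own, so an extract against vehicle is also a contrast of code sets, and the 2 cannot be told apart.

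MHC class I molecules show fragments of a cell's own proteins to CD8 T cells. Proteasomes cut the proteins, the TAP transporter carries the peptides into the endoplasmic reticulum, and tapasin helps to load them onto a class I heavy chain bound to beta-2 microglobulin. Most genes of the pathway are expressed at a low to moderate level in epithelial cells and are induced together by interferons, in particular interferon gamma, and the transactivator NLRC5 drives many of them.

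PSMB8 and PSMB9 encode immunoproteasome subunits, which take the place of constitutive catalytic subunits. TAP1 and TAP2 encode the paired subunits of the transporter, and TAPBP encodes tapasin. HLA-B and HLA-C encode heavy chains, and B2M encodes the light chain. Of the 9, 7 lie in the MHC on chromosome 6, B2M is on chromosome 15 (44711487 to 44718877, GRCh38, GENCODE 29) and NLRC5 on chromosome 16 (56989485 to 57083531). TAP2 (32821833 to 32838780), PSMB8 (32840717 to 32844703), TAP1 (32845209 to 32853978) and PSMB9 (32844136 to 32859585) form a cluster on chromosome 6. TAPBP lies at 33299694 to 33314387. In this annotation PSMB9, on the plus strand, spans all of TAP1 and an end of PSMB8, both on the minus strand. How strand was used in counting is not stated in the labels or notes, and reads of PSMB9 and of these neighbours may have been shared. Likewise the gene model of HLA-B (31269491 to 31357188) overlaps HLA-C (31268749 to 31272130) on the same strand, and the genes are close relatives. Levels of HLA-B and HLA-C are therefore uncertain, and how far the alleles of HT29 differ from the reference genome was not tested.

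Promoter sequence is given because these genes are known to answer interferon and NF-kB signals together. Whether it bears on any difference between the groups was not tested. RefSeq windows on GRCh38.p14, from 250 bases before to 50 bases after the start site, were matched for 8 of the 9 genes. The 250 bases before the start are printed for 5 genes, 5′ to 3′ on the gene's own strand, with matches to an interferon-stimulated response element (ISRE; GAAA, any 2 bases, GAAA) and to an NF-kB motif (kB; GGG, any 2 bases, TT, any base, CC) on either strand in capitals. No matches to the GAS letters TTCNNNGAA or the CRE letters TGACGTCA were found in any of the 8 windows.
TAP1: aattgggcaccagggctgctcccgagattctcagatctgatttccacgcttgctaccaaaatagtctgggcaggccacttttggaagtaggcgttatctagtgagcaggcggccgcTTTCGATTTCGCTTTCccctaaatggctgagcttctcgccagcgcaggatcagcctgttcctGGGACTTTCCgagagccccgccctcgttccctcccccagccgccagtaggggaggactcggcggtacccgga
PSMB9: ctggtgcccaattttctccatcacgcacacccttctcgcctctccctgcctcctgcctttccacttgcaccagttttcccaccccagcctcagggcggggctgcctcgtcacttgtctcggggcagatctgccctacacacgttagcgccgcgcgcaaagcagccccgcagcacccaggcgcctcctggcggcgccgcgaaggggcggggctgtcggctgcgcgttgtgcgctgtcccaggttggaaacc
TAP2: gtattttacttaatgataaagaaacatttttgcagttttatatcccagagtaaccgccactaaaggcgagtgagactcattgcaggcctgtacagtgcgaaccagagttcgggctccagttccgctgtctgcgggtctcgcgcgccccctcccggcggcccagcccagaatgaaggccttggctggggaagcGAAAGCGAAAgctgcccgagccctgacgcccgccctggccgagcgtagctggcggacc
PSMB8: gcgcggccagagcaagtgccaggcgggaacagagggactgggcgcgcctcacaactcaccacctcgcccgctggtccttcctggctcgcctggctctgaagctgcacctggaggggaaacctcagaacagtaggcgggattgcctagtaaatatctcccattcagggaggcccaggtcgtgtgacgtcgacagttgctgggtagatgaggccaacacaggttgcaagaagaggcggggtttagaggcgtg
B2M: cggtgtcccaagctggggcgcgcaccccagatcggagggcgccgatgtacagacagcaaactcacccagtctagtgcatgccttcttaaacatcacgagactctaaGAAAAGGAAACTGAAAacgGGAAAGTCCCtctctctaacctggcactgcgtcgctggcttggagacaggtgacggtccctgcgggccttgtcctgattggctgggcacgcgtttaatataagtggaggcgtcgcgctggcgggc
They lie at chr6:32853705-32853954 (minus strand) for TAP1, chr6:32853942-32854191 (plus) for PSMB9, chr6:32838740-32838989 (minus) for TAP2, chr6:32844680-32844929 (minus) for PSMB8 and chr15:44711267-44711516 (plus) for B2M. The start sites of TAP1 and PSMB9 point away from each other with 487 bases between them, and their windows share 13 bases.

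Counted from the start site as 0, the TAP1 window holds 2 overlapping ISRE matches at -134 to -119 and a kB match at -72 to -63. B2M has the same arrangement, with 2 overlapping ISRE matches at -144 to -129 and a kB match at -125 to -116. TAP2 has 1 ISRE match at -58 to -49 and no kB match. TAPBP has 2 overlapping ISRE matches at -20 to -5 and a kB match at -56 to -47, and HLA-B has a kB match at -177 to -168. PSMB8, PSMB9 and HLA-C hold neither within their windows. The TAP1 matches lie in the 487 bases between the TAP1 and PSMB9 starts, but beyond the end of the PSMB9 window. Over 27305 RefSeq windows of the same length, 3.65% held the ISRE letters and 5.67% the kB letters. The GAS letters were in 7.88% and the CRE letters in 1.98% of them. These are matches of letters and not shown to be sites in use.

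In vehicle the genes lay far apart in level. On the scale of CPM, a count scaled to the normalised library total, per kilobase of exon, B2M was highest at 64.3 ± 3.78 CPM per kb (SD, n = 3), followed by TAPBP at 37.5 ± 0.671 and HLA-C at 20.3 ± 3.07. TAP2 had 8.65 ± 0.592, PSMB8 3.75 ± 0.819, TAP1 2.17 ± 0.0746 and HLA-B 1.49 ± 0.406 CPM per kb. The immunoproteasome subunit PSMB9, at 0.309 ± 0.0365, and NLRC5, at 0.0711 ± 0.0145 CPM per kb, were lowest. No neighbours in this order overlapped between the 3 vehicle libraries. Per length, TAP2 lay above TAP1 in every vehicle library, although their proteins form 1 transporter. Exon length is the union over all transcripts, so a gene with long alternative exons is understated on this scale.

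**Figure D1:**
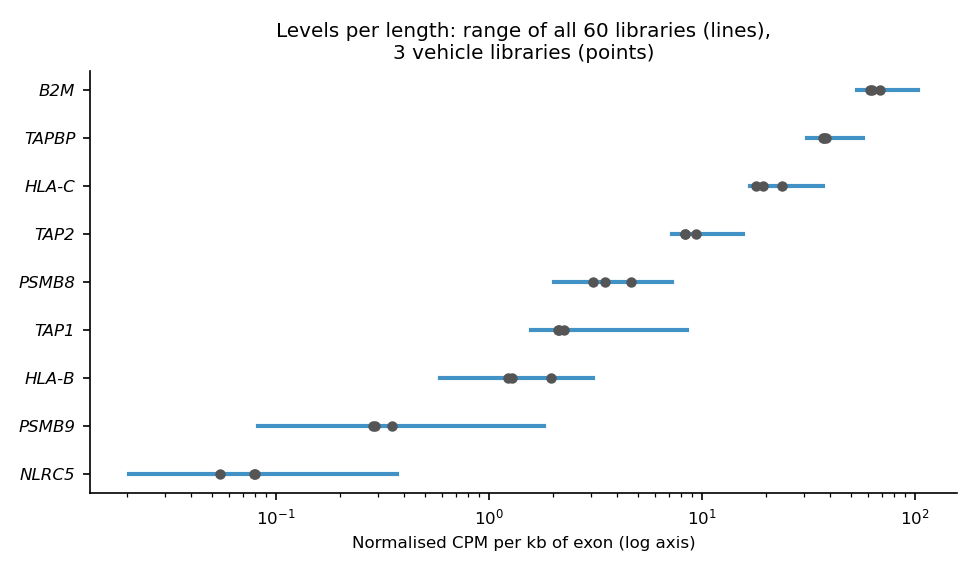
Level of each class I presentation gene in normalised CPM per kb of exon, on a log axis. Lines span all 60 libraries and points are the 3 vehicle libraries. B2M has the highest level and NLRC5 the lowest, and the line of PSMB9 is long at its upper end, where the Coptidis Rhizoma high-dose library lies.

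Libraries held 18.02 to 35.82 M counts with a median of 24.46 M. The members had from 5 counts (PSMB9 and NLRC5 in 1 high-dose library of Scutellariae Radix) to 16444 (B2M) in a library, so PSMB9 and NLRC5 are the least precise. Of the colon epithelial markers, 10 of 10 passed the count filter, and their summed level was 8976 to 14331 CPM. Immune cell markers summed to 8.90 to 20.2 CPM, with PTPRC, CD3E, MS4A1 and NKG7 under 1 CPM in every library. In the same list CD68, CD14 and ITGAM passed the count filter, with vehicle means of 6.45, 4.00 and 1.45 CPM. Fibroblast and endothelial markers summed to 3.08 to 6.05 CPM. Against the median of the libraries, 4 stood apart by more than 10 median absolute deviations in the share of mitochondrial or ribosomal protein counts. In the replicated groups these were replicate 1 of vehicle and low-dose replicate 3 of Scutellariae Radix, with ribosomal protein shares of 6.65% and 8.68%, and high-dose replicate 2 of Pinelliae Tuber, with a mitochondrial share of 14.3%. The fourth was the Coptidis Rhizoma low-dose library (mitochondrial 15.2%). In bulk RNA a change in the share of some cells and a change per cell cannot be told apart. Results that rest on the 3 replicated ones are given with and without them, and their part in other results was not tested.

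Across the 18 extract and dose groups with replicates, members changed against vehicle in 3 (edgeR's quasi-likelihood test, Benjamini-Hochberg adjusted p under 0.05 over 16763 genes). Scutellariae Radix at the high dose changed 5 of the 9 members, where 23.6% of all genes were called. Zingiberis Rhizoma Recens at the high dose changed 1 of 9 (6.36% of all genes) and Sayeok-tang at the low dose 1 of 9 (3.3%). Among the other 15 groups, 0.793% of all genes were called at the medium and 2.85% at the high dose of Sayeok-tang, and 3.1% at the low and 2.16% at the medium dose of Zingiberis Rhizoma Recens. With Zingiberis Rhizoma 1.99%, 1.06% and 13.1% were called at the low, medium and high dose, and with Pinelliae Tuber 0.543%, 2.11% and 5.09%. In all 15 edgeR called 0 members, with 0 to 3 at an unadjusted p under 0.05, and DESeq2 called 1 at the medium dose of Scutellariae Radix and 0 elsewhere. The vehicle libraries are shared by all of these contrasts.

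**Figure D2:**
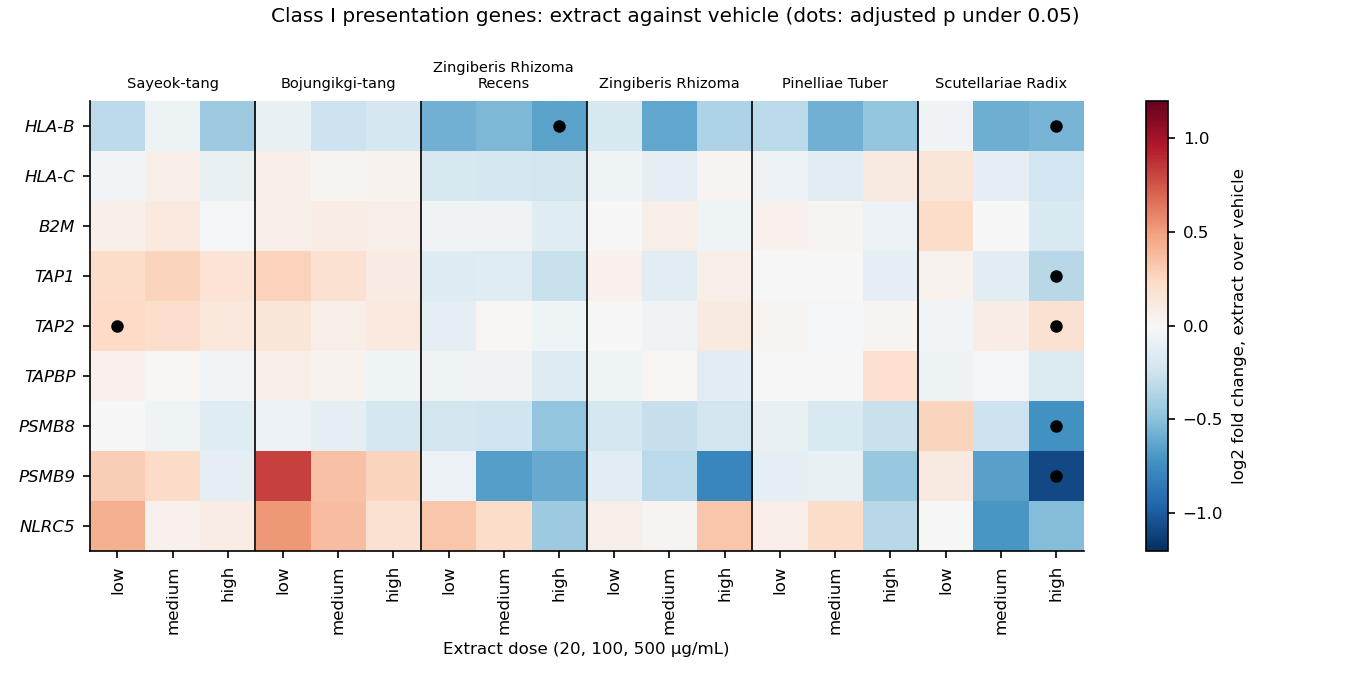
Log2 fold change of the 9 genes (rows) in each extract and dose group over vehicle (columns, doses from low to high), with red for higher and blue for lower with the extract and dots where the adjusted p was under 0.05. The 7 dots lie at the high dose of Scutellariae Radix (5), the high dose of Zingiberis Rhizoma Recens (1) and the low dose of Sayeok-tang (1).

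With Scutellariae Radix at the high dose, transcripts of the immunoproteasome subunits, of TAP1 and of HLA-B fell against vehicle, whereas TAP2 rose. PSMB8 was at 7.26, 6.05 and 6.94 CPM in high-dose libraries, against 14.0, 10.5 and 9.23 CPM in vehicle libraries. The groups do not overlap, and vehicle replicate 1 is the highest library. PSMB8 fell by 0.73 ± 0.17 on the log2 scale (SE, adjusted p = 0.00139), and by 0.55 without vehicle replicate 1. PSMB9, the partner of PSMB8 in the immunoproteasome, was at 0.254, 0.346 and 0.686 CPM in high-dose libraries, against 1.08, 0.898 and 0.874 CPM in vehicle libraries. These values rest on 5 to 18 counts in high-dose libraries and 22 to 32 in vehicle libraries, without overlap. PSMB9 fell by 1.08 ± 0.31 (adjusted p = 0.00906), a 2.11-fold lower level. The call was lost without high-dose replicate 1 (log2 fold change -0.84, adjusted p = 0.0683) or replicate 2 (-0.93, adjusted p = 0.0582).

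The transporter subunits went opposite ways. TAP1 was at 8.02, 8.82 and 8.08 CPM in high-dose libraries, against 10.3, 10.8 and 10.2 CPM in vehicle libraries, and fell by 0.33 ± 0.09 (adjusted p = 0.00638). The groups do not overlap, and the call held whichever of the 6 libraries was left out, but not with no count filter (-0.32, adjusted p = 0.0591). TAP2 was at 62.2, 61.8 and 64.3 CPM in high-dose libraries, against 53.0, 53.2 and 59.6 CPM in vehicle libraries, a log2 rise of 0.18 ± 0.07 (adjusted p = 0.0409). These groups do not overlap either, but the TAP2 call was lost in 5 of the 6 fits that left out 1 library, with log2 fold changes of 0.16 to 0.19 in those 5. It was also lost with no count filter (0.19, adjusted p = 0.163) and without the 3 libraries that stood apart (0.16, adjusted p = 0.0598), where B2M (-0.13, adjusted p = 0.0265) and TAPBP (-0.17, adjusted p = 0.0226) were called and TAP1, PSMB8 and PSMB9 still were.

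Among the presented chains, HLA-B was at 4.11, 2.64 and 2.52 CPM in high-dose libraries, against 5.98, 3.93 and 3.76 CPM in vehicle libraries. The groups overlap, since high-dose replicate 1 lies above 2 vehicle libraries. Vehicle had the highest HLA-B mean of all replicated groups, so a mean below it was common to every replicated extract group. HLA-B fell by 0.56 ± 0.20 (adjusted p = 0.0381), a call that was lost without vehicle replicate 1 (-0.33, adjusted p = 0.321), without high-dose replicate 2 (-0.46, adjusted p = 0.161) and without high-dose replicate 3 (-0.42, adjusted p = 0.201). It was lost without the 3 libraries that stood apart too (-0.34, adjusted p = 0.133), and on the 6 libraries alone (adjusted p = 0.0983). HLA-C (-0.23 ± 0.09, adjusted p = 0.0628) and B2M (-0.19 ± 0.08, adjusted p = 0.0793) did not pass the test. TAPBP (-0.17 ± 0.09, adjusted p = 0.196) and NLRC5 (-0.52 ± 0.27, adjusted p = 0.201) did not pass it either. The 9 members had a median log2 fold change of -0.33, beside -0.02 over all genes tested.

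**Figure D3:**
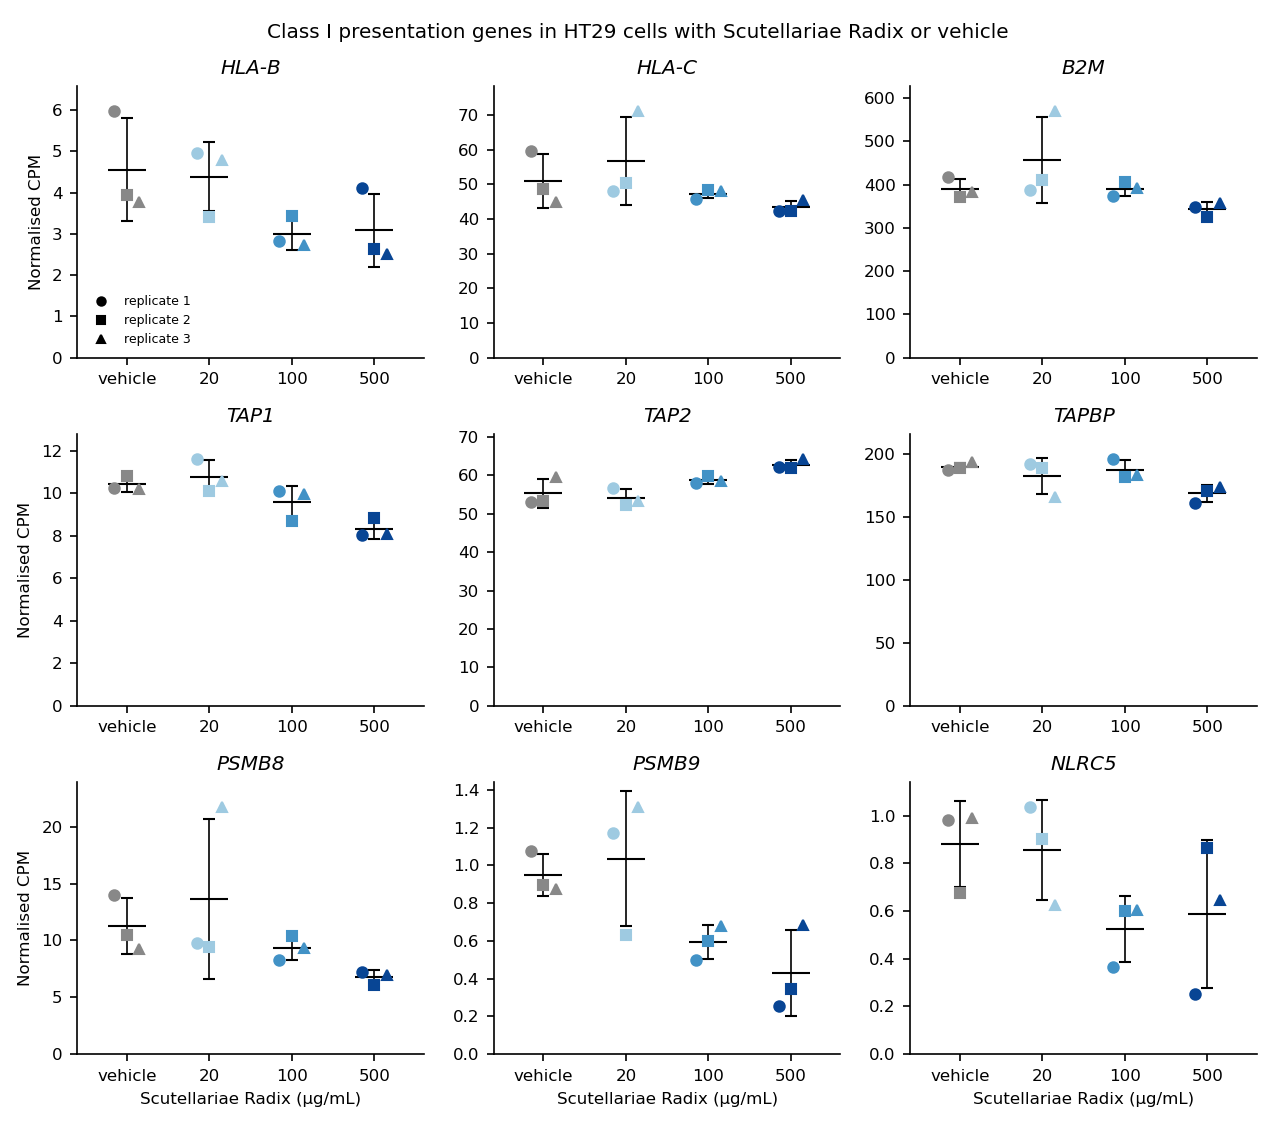
Normalised CPM of the 9 genes in HT29 libraries with vehicle and with Scutellariae Radix at 20, 100 and 500 µg/mL, 1 panel a gene, with a symbol for each replicate number and bars for the mean and SD (n = 3 libraries a group). PSMB8, PSMB9 and TAP1 are lowest at 500 µg/mL and TAP2 is highest there, and replicate 3 at 20 µg/mL stands above the other 2 in HLA-C, B2M and PSMB8.

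At the medium dose of Scutellariae Radix 0 of 9 members were called against vehicle (9.53% of all genes), while 3 had an unadjusted p under 0.05 and DESeq2 called 1. HLA-B (-0.58 ± 0.20, adjusted p = 0.0536), NLRC5 (-0.70 ± 0.27, adjusted p = 0.105) and PSMB9 (-0.65 ± 0.29, adjusted p = 0.152) had the smallest p. At the low dose 0 members were called (0.382% of all genes), 1 had an unadjusted p under 0.05 and DESeq2 called 0.

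Of 12 other genes of class I presentation, 4 fell and 2 rose with Scutellariae Radix at the high dose against vehicle. PSMB10, the third immunoproteasome subunit, fell by 0.72 ± 0.13 (adjusted p = 3.88e-05), and PSME1, a subunit of the proteasome activator PA28, fell by 0.54 ± 0.11 (adjusted p = 0.000296). TAPBPL, a tapasin relative that edits peptides, fell by 0.87 ± 0.15 (adjusted p = 1.48e-05). CANX, which encodes the chaperone calnexin, rose by 0.47 ± 0.08 (adjusted p = 4.18e-05). Of the 14 constitutive proteasome subunits, 0 were called by edgeR, 3 had an unadjusted p under 0.05 and DESeq2 called 0. Without the 3 libraries that stood apart 7 of them rose.

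Interferon-stimulated genes were lower in the same libraries. Of 20 antiviral interferon-stimulated genes, 17 fell and 0 rose with Scutellariae Radix at the high dose (18 and 0 without the 3 libraries), with a median log2 fold change of -0.69, beside -0.02 over all genes. MX1, an antiviral GTPase, fell by 1.52 ± 0.18 (adjusted p = 1.67e-08) and OAS2, an RNA sensor, by 1.54 ± 0.25 (adjusted p = 8.93e-06). Of 21 tested regulators of class I and interferon signalling, 3 fell and 3 rose, and without vehicle replicate 1 only 1 rose. The counts were 5 and 3 without the 3 libraries that stood apart. IRF9, the DNA-binding subunit of the interferon-activated ISGF3 complex, fell by 1.17 ± 0.14 (adjusted p = 8.77e-09). RFX5, a subunit of the RFX factor that binds class I and class II promoters, fell by 0.40 ± 0.06 (adjusted p = 7.56e-06), and IRF1, which activates TAP1 and PSMB9, by 0.31 ± 0.08 (adjusted p = 0.00179). IFNGR1, a chain of the interferon gamma receptor, rose by 0.49 ± 0.06 (adjusted p = 3.2e-08).

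Of 8 tested interferon gamma-type genes, 3 fell and 3 rose. The count that fell was 1 without high-dose replicate 2, vehicle replicate 1 or vehicle replicate 2, while 3 rose in each fit that left out 1 library. GBP2, a guanylate-binding protein, fell by 0.50 ± 0.08 (adjusted p = 7e-06), whereas WARS, the tryptophanyl-tRNA synthetase, rose by 0.51 ± 0.06 (adjusted p = 1.76e-09) and CD274, which encodes the checkpoint ligand PD-L1, by 0.92 ± 0.22 (adjusted p = 0.00138). All 4 tested class II presentation genes fell, namely CIITA, the class II transactivator and a relative of NLRC5, CD74, the invariant chain, and the peptide exchange genes HLA-DMA and HLA-DMB. Without high-dose replicate 3 the count was 2 of 4.

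The dose contrast of Scutellariae Radix needs no vehicle, and there 6 of 9 members were called between the high and the low dose, where 22.5% of all genes were. PSMB8 was at 7.26, 6.05 and 6.94 CPM at the high dose, against 9.77, 9.43 and 21.7 CPM at the low dose, and fell by 0.99 ± 0.17 on the log2 scale (adjusted p = 2.83e-05). Low-dose replicate 3, which stood apart in ribosomal protein counts, lies far above its group in this gene. Without it the fall was 0.51 and the call held (adjusted p = 0.0020).

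TAP1 was at 8.02, 8.82 and 8.08 CPM at the high dose, against 11.6, 10.1 and 10.6 CPM at the low dose, and fell by 0.37 ± 0.09 (adjusted p = 0.00275). The groups do not overlap, and low-dose replicate 3 lies inside its group. PSMB9 was at 0.254, 0.346 and 0.686 CPM at the high dose, against 1.17, 0.629 and 1.31 CPM at the low dose, with an overlap of 1 library each. It fell by 1.19 ± 0.32 (adjusted p = 0.00551). TAP2 again went the other way, with 62.2, 61.8 and 64.3 CPM at the high dose, against 56.8, 52.2 and 53.2 CPM at the low dose, and rose by 0.22 ± 0.07 (adjusted p = 0.0179). Its groups do not overlap, but the call was lost without low-dose replicate 3 (0.20, adjusted p = 0.0612), low-dose replicate 2 (0.19, adjusted p = 0.0527) or high-dose replicate 3 (0.20, adjusted p = 0.0681), and with no count filter (0.23, adjusted p = 0.0699). HLA-B (-0.51 ± 0.21, adjusted p = 0.0657), NLRC5 (-0.52 ± 0.28, adjusted p = 0.186) and TAPBP (-0.11 ± 0.09, adjusted p = 0.416) did not pass the test, though TAPBP did without the 3 libraries that stood apart (-0.18, adjusted p = 0.0252).

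B2M was at 349, 324 and 356 CPM at the high dose, against 388, 409 and 571 CPM at the low dose. It fell by 0.41 ± 0.08 (adjusted p = 0.000149), and by 0.22 with a kept call without low-dose replicate 3 (adjusted p = 0.0091). HLA-C was at 42.4, 42.4 and 45.4 CPM at the high dose, against 48.1, 50.5 and 71.2 CPM at the low dose, and fell by 0.38 ± 0.09 (adjusted p = 0.00222). Neither gene's groups overlap, and in both the 71.2 and 571 CPM belong to low-dose replicate 3. The HLA-C call was lost without that library (-0.19, adjusted p = 0.125), though not without all 3 that stood apart (-0.19, adjusted p = 0.0152). Fitted on the 6 libraries of the contrast alone, 0 of the 6 calls held, with log2 fold changes of the same size and adjusted p from 0.159 for TAP1 to 0.306 for HLA-C. Between the high and medium dose of Scutellariae Radix 0 members were called (3.54% of all genes), 3 had an unadjusted p under 0.05 and DESeq2 called 0. Between the medium and low dose these counts were 0 (4.22%), 6 and 2. Without the 3 libraries that stood apart, B2M (-0.19, adjusted p = 0.00163) and PSMB8 (-0.48, adjusted p = 8.88e-05) were lower at the high than at the medium dose. For 17 of 20 antiviral interferon-stimulated genes the level was lower at the high than at the low dose by the same test, MX1 by 1.47 ± 0.19 (adjusted p = 6.26e-08), and 17 were without the 3 libraries that stood apart.

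In the other 5 extracts 0 of 9 members were called between the high and the low dose, by edgeR or by DESeq2. Of all genes 0.382% were called with Sayeok-tang, 0.0656% with Bojungikgi-tang, 0.489% with Zingiberis Rhizoma Recens, 4.34% with Zingiberis Rhizoma and 1.78% with Pinelliae Tuber. Zingiberis Rhizoma Recens, Zingiberis Rhizoma and Pinelliae Tuber had 1 member each with an unadjusted p under 0.05. The smallest of these was that of NLRC5 with Zingiberis Rhizoma Recens, at 0.533, 0.685 and 0.687 CPM at the high dose, against 1.29, 0.737 and 1.24 CPM at the low dose (-0.77 ± 0.27, edgeR's adjusted p = 0.327).

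Scutellariae Radix and Pinelliae Tuber share a code set and the same doses. At the high dose 2 of 9 members were called between them, where 22.8% of all genes were. HLA-C was at 42.4, 42.4 and 45.4 CPM with Scutellariae Radix, against 50.02, 61.2 and 53.3 CPM with Pinelliae Tuber, and was lower with Scutellariae Radix by a log2 difference of -0.34 ± 0.09 (adjusted p = 0.00584). TAPBP was at 161, 171 and 174 CPM with Scutellariae Radix, against 183, 288 and 184 CPM with Pinelliae Tuber (-0.37 ± 0.09, adjusted p = 0.00308). Neither gene's groups overlap, and the 61.2 and 288 CPM belong to Pinelliae Tuber replicate 2, which stood apart in mitochondrial counts. Without that library neither call held, at -0.25 (adjusted p = 0.0914) for HLA-C and -0.12 (adjusted p = 0.300) for TAPBP. On the 6 libraries alone the adjusted p was 0.166 for HLA-C and 0.379 for TAPBP. Without all 3 that stood apart HLA-C was called (-0.25, adjusted p = 0.00108), as were B2M (-0.19, adjusted p = 0.00197) and PSMB8 (-0.56, adjusted p = 2.29e-05), while TAPBP was not. In the fit over all libraries the 7 members that were not called had log2 differences from -0.62 for PSMB9 (adjusted p = 0.180) to 0.15 for TAP2 (adjusted p = 0.0934).

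At the medium dose 1 of 9 members was called between these extracts (3.05% of all genes). NLRC5 was at 0.364, 0.599 and 0.606 CPM with Scutellariae Radix, against 1.28, 0.808 and 0.927 CPM with Pinelliae Tuber. The groups, of 8 to 17 counts and 20 to 36 counts a library, do not overlap. The difference was -0.92 ± 0.27 (adjusted p = 0.0426), and the call was lost in 5 of the 6 fits that left out 1 library, with values of -0.71 to -1.03. It was also lost in DESeq2 (adjusted p = 0.0818), with a replicate block (adjusted p = 0.0528), with that block within code sets (adjusted p = 0.0579) and with no count filter (adjusted p = 0.196). At the low dose 0 members were called (0.0418%), 3 had an unadjusted p under 0.05 and DESeq2 called 0. The high-minus-low difference itself differed between the extracts for HLA-C (-0.56 ± 0.13, adjusted p = 0.0032) and PSMB8 (-0.81 ± 0.24, adjusted p = 0.0238), 2 of 9 members, where 9.57% of all genes were called. The PSMB8 call was lost without Scutellariae Radix low-dose replicate 3 (-0.33, adjusted p = 0.188) and without its high-dose replicate 2 (-0.74, adjusted p = 0.0700). Without all 3 libraries that stood apart both were called with smaller values, -0.28 (adjusted p = 0.0234) for HLA-C and -0.43 (adjusted p = 0.0341) for PSMB8. On the 12 libraries alone, adjusted p was 0.372 for HLA-C and 0.553 for PSMB8, while in the fit over all groups the HLA-C call held in all 12 fits that left out 1 library, with -0.66 to -0.36.

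HLA-B was lower with fresh ginger (Zingiberis Rhizoma Recens) at the high dose than with vehicle. It was at 2.23, 3.17 and 3.18 CPM in high-dose libraries, against 5.98, 3.93 and 3.76 CPM in vehicle libraries. The groups do not overlap, and vehicle replicate 1, which stood apart, is the highest. Vehicle had the highest HLA-B mean of all replicated groups, at 4.56 CPM, so the mean was lower in every replicated extract group. With fresh ginger it was 3.00 CPM at the low, 3.10 at the medium and 2.86 at the high dose. Between the high dose and either other dose of fresh ginger 0 members were called. HLA-B fell by 0.64 ± 0.20 (adjusted p = 0.0457). The call was lost in 5 of the 6 fits that left out 1 library, with log2 fold changes of -0.74 to -0.42 in those 5, the smallest without vehicle replicate 1 (adjusted p = 0.390). It was lost without the 3 libraries that stood apart too (-0.41, adjusted p = 0.103), and on the 6 libraries alone (adjusted p = 0.0713), and the sum of HLA-B and HLA-C counts was not called (-0.25, adjusted p = 0.0683). PSMB8 (-0.47 ± 0.17, adjusted p = 0.0756), TAP1 (-0.26 ± 0.09, adjusted p = 0.0667) and PSMB9 (-0.60 ± 0.29, adjusted p = 0.204) did not pass the test. Without the 3 libraries that stood apart PSMB8 was the member called, with a smaller value (-0.29, adjusted p = 0.0258). The other 5 members, which were not called, had log2 fold changes from -0.43 for NLRC5 to -0.05 for TAP2. The median log2 fold change of the 9 was -0.26, beside -0.01 over all genes. Of the other class I presentation genes 3 of 12 fell, PSME1 (-0.39 ± 0.11, adjusted p = 0.0283), PSMB10 (-0.44 ± 0.13, adjusted p = 0.0306) and TAPBPL (-0.46 ± 0.14, adjusted p = 0.039). None of the 12 fell without vehicle replicate 1 or without any 1 of the 3 high-dose libraries, and 1 fell without vehicle replicate 2. In the fit without the 3 libraries that stood apart 2 fell and 2 rose. Of 20 antiviral interferon-stimulated genes 10 fell and 0 rose with fresh ginger at the high dose against vehicle (8 and 0 without those 3 libraries). With 1 library left out at a time, 6 to 10 of them fell.

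Against fresh ginger, dried ginger (Zingiberis Rhizoma) at the high dose had more TAP1, the 1 member called of 9 (2.26% of all genes). TAP1 was at 11.5, 10.9 and 10.3 CPM with dried ginger, against 9.40, 9.09 and 7.60 CPM with fresh ginger. The groups do not overlap, and the log2 difference was 0.33 ± 0.09 (adjusted p = 0.0395). The call was lost in 4 of the 6 fits that left out 1 library, with 0.24 to 0.37 in those 4, on the 6 libraries alone (adjusted p = 0.0617) and with no count filter (adjusted p = 0.270). The other 8 members had log2 differences from -0.18 for PSMB9 to 0.77 for NLRC5 (adjusted p = 0.170), and HLA-C was called without the 3 libraries that stood apart (0.26, adjusted p = 0.000646). Of 20 antiviral interferon-stimulated genes 9 were higher with dried ginger and 0 lower (14 and 0 without the 3 libraries that stood apart, 1 without dried ginger replicate 2, 4 without fresh ginger replicate 1), among them MX1 (0.91 ± 0.17, adjusted p = 0.000493) and IFI44L (2.03 ± 0.42, adjusted p = 0.00195). At the medium and low dose of this pair 0 members were called by edgeR or DESeq2 (0.0% of all genes), with 0 and 1 at an unadjusted p under 0.05, and the 95% interval of the TAP1 difference was -0.18 to 0.19 at the medium dose and 0.03 to 0.39 at the low dose.

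TAP2 rose with the water extract Sayeok-tang at the low dose. It was at 66.1, 63.8 and 66.1 CPM in low-dose libraries, against 53.0, 53.2 and 59.6 CPM in vehicle libraries. The groups do not overlap, and TAP2 rose by 0.24 ± 0.07 (adjusted p = 0.0368). The call was lost in 5 of the 6 fits that left out 1 library, with 0.21 to 0.26 in those 5, and with no count filter (adjusted p = 0.0871). TAP1, at 11.9, 11.9 and 12.8 CPM with Sayeok-tang and 10.3, 10.8 and 10.2 CPM with vehicle, did not overlap between the groups, yet did not pass the test (0.22 ± 0.09, adjusted p = 0.128). The other 7 members had log2 fold changes from -0.31 for HLA-B to 0.42 for NLRC5. Without the 3 libraries that stood apart TAP2 was called at this dose (0.23, adjusted p = 0.0215), and HLA-C (0.22, adjusted p = 0.0242) and B2M (0.18, adjusted p = 0.0258) at the medium dose. Antiviral interferon-stimulated genes rose at this dose in 11 of 20 cases and fell in 0 (14 and 0 without the 3 libraries, 6 without low-dose replicate 1), among them IFI44 (0.88 ± 0.13, adjusted p = 4.1e-05) and DDX58, the RNA sensor RIG-I (0.60 ± 0.10, adjusted p = 0.000557). By edgeR 0 of the 12 other class I presentation genes were called at this dose, although 6 had an unadjusted p under 0.05 and DESeq2 called 1.

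Bojungikgi-tang shares a code set with Sayeok-tang. Its low-dose libraries had the highest TAP1 mean of the 19 groups, at 12.7 and 12.6 CPM, against 10.3, 10.8 and 10.2 CPM in vehicle libraries, but 0 of 9 members were called there (0.424% of all genes), with 2 at an unadjusted p under 0.05 and 0 by DESeq2. Those 2 were TAP1 (0.27 ± 0.10, adjusted p = 0.219) and PSMB9 (0.82 ± 0.28, adjusted p = 0.208). At the medium (1.49%) and high dose (0.626%) 0 members were called, 0 had an unadjusted p under 0.05 and DESeq2 called 0. Between Sayeok-tang and Bojungikgi-tang 0 of 9 members were called at each dose (0.00597% of genes at the high dose, 0.0% at the others), with 0 at an unadjusted p under 0.05 and 0 by DESeq2. The 95% interval of the TAP1 difference at the high dose was -0.14 to 0.26.

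**Figure D4:**
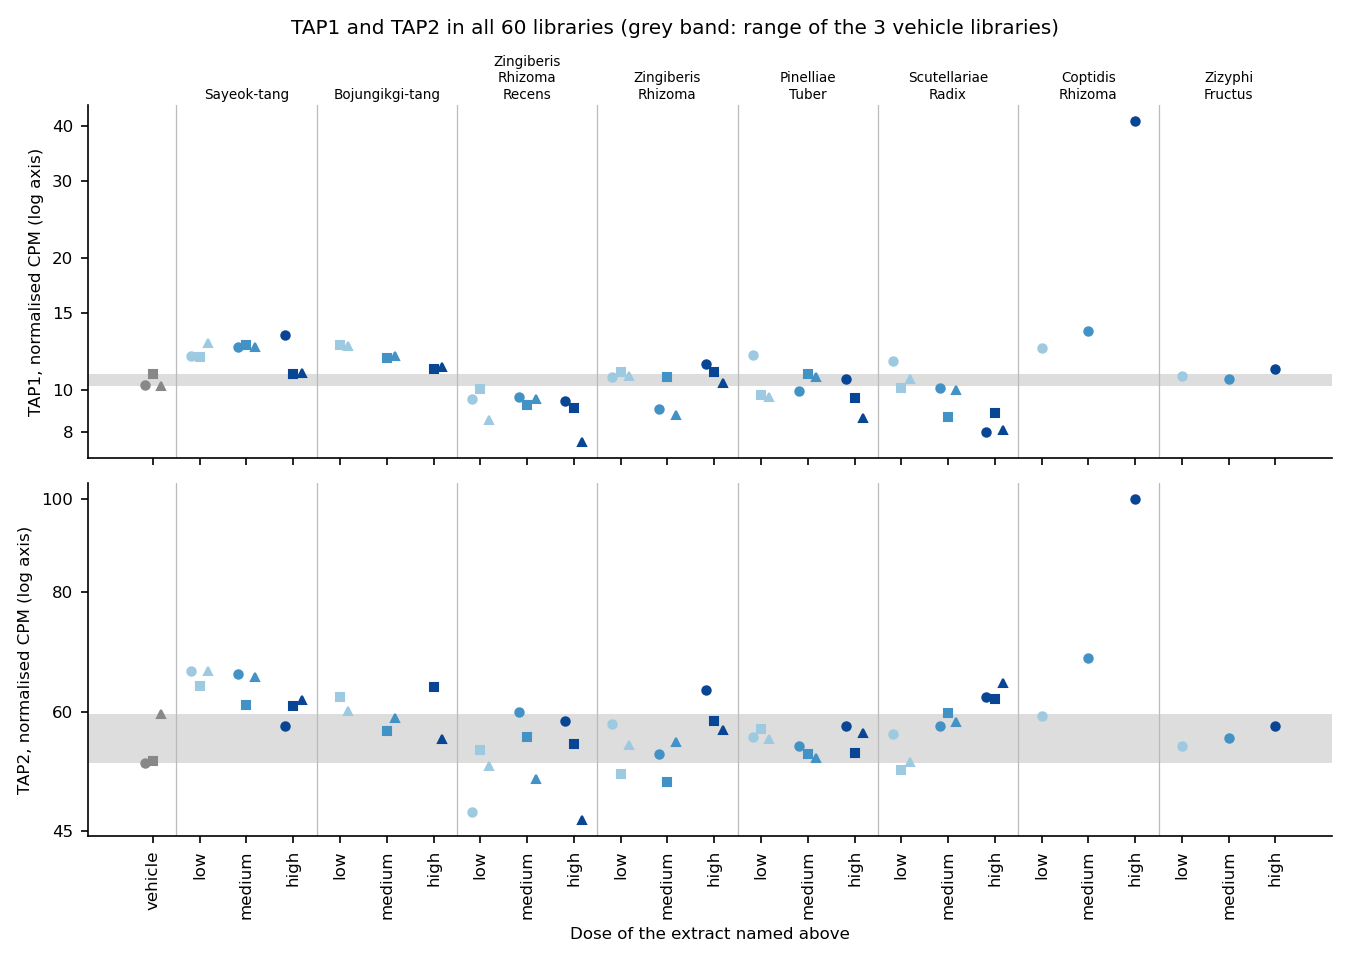
Normalised CPM of TAP1 (upper panel) and TAP2 (lower panel) in every library, on log axes, for vehicle and for the low, medium and high dose of each extract, with a grey band for the range of the 3 vehicle libraries. The Coptidis Rhizoma high-dose library has 41.0 CPM of TAP1 and 100.0 CPM of TAP2, above all others, and Scutellariae Radix at the high dose lies below the band for TAP1 and above it for TAP2.

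The highest levels of most members were in 1 library, that of Coptidis Rhizoma at 320 µg/mL, for which there is no replicate and thus no test at this dose. Coptidis Rhizoma is the rhizome of Coptis, a source of berberine, and its top dose was set below the others under the study's rule for extracts with an IC20 under 500 µg/mL. TAP1 was at 10.3, 10.8 and 10.2 CPM in vehicle libraries, 12.4 CPM at 12.8 µg/mL, 13.6 CPM at 64 µg/mL and 41.0 CPM (1079 counts) at 320 µg/mL. PSMB9 was at 1.08, 0.898 and 0.874 CPM in vehicle libraries and at 0.714, 1.26 and 5.59 CPM (12, 25 and 147 counts) at the 3 doses. NLRC5 was at 0.981, 0.674 and 0.988 CPM in vehicle libraries and at 1.43, 1.61 and 4.60 CPM (24, 32 and 121 counts) at the 3 doses. These 3 genes stood highest against the vehicle mean, with log2 ratios of 2.07 for PSMB9, 1.93 for TAP1 and 1.89 for NLRC5 on the scale of CPM + 0.5. They are the 3 of 9 members above a log2 ratio of 1, where 6.02% of all genes were.

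The other members were higher by less, with 1 exception. In the 320 µg/mL library HLA-B was at 9.36 CPM, HLA-C at 93.2, B2M at 625, TAP2 at 100.0 and PSMB8 at 17.7 CPM, against vehicle means of 4.56, 50.98, 391, 55.3 and 11.2 CPM. All 5 lay above every vehicle library. TAPBP, at 180 CPM, against 187, 188 and 193 CPM in vehicle libraries, was below them. How many of all genes lay above or below every vehicle library at 320 µg/mL was not counted. The median log2 ratio of the 9 members was 0.86, beside -0.02 over all genes. At 12.8 and 64 µg/mL the medians were 0.06 and 0.28, and 0 members passed a log2 ratio of 1 (0.221% and 0.686% of all genes did).

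Other genes of the pathway differed from each other in that library. Of 20 antiviral interferon-stimulated genes 18 were above a log2 ratio of 1, with IFI44L at 15.3 CPM, against 1.15 ± 0.334 CPM in vehicle libraries (SD, n = 3), and IFIT2 at 26.8, against 4.81 ± 0.738 CPM. Of 8 measured interferon gamma-type genes 5 were, with GBP1 at 6.81, against 0.878 ± 0.0783 CPM, and WARS at 595, against 93.6 ± 1.87 CPM. The signalling genes IRF9, at 50.7, against 15.3 ± 1.26 CPM, and JAK1, a kinase of interferon receptors, at 157, against 56.0 ± 2.88 CPM, were higher too. Of the 12 other class I presentation genes, TAPBPL was at 16.5, against 4.45 ± 0.628 CPM, while the chaperone gene CALR was lower at 277, against 596 ± 49.9 CPM. The 14 constitutive proteasome subunits had a median log2 ratio of -0.29 and none above 1, and the 4 measured class II genes had a median of -0.19. In the same library the mitochondrial share was 3.44% and the ribosomal protein share 6.23% of counts, which is -9.98 and 9.18 median absolute deviations from the median of the libraries. Of 10 colon epithelial markers 3 were below a log2 ratio of -1, with CEACAM5 at 1.56, against 5.76 ± 0.66 CPM. The part of these differences in the result was not tested.

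**Figure D5:**
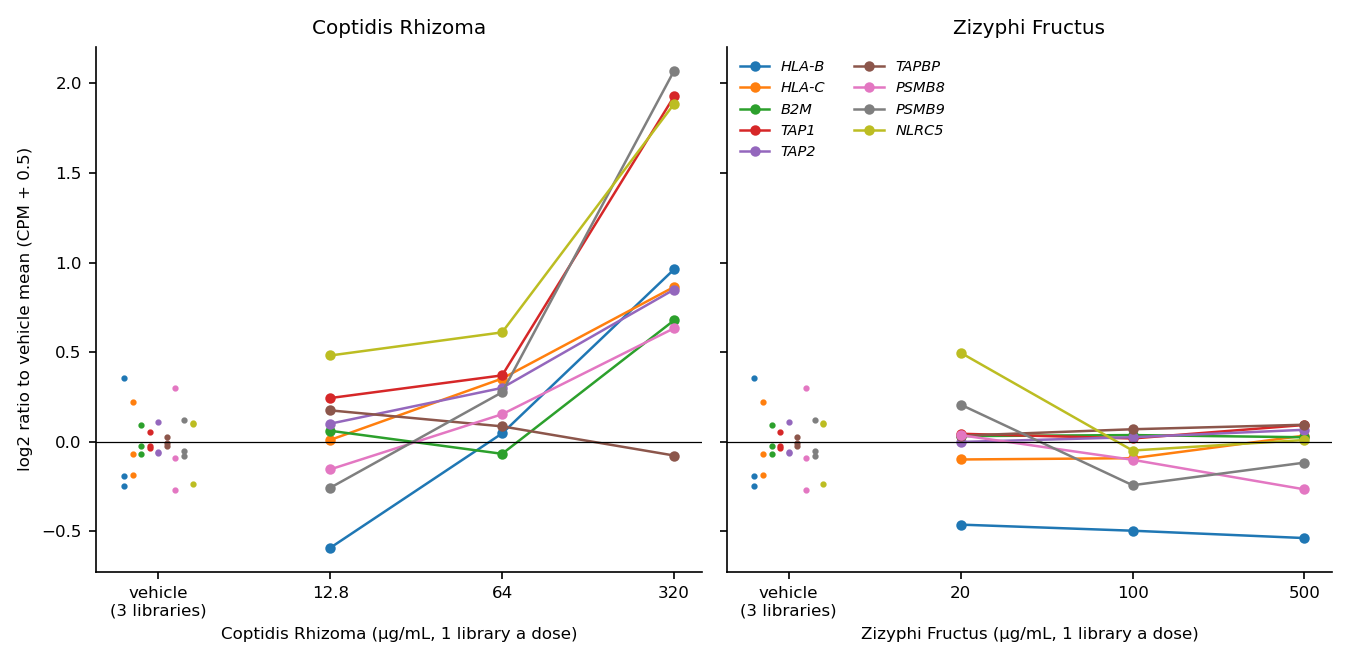
Log2 ratio of each gene's CPM + 0.5 to the vehicle mean for Coptidis Rhizoma (left) and Zizyphi Fructus (right), with 1 library a dose (joined points) and the 3 vehicle libraries themselves (small dots). At 320 µg/mL of Coptidis Rhizoma PSMB9, TAP1 and NLRC5 lie between 1.89 and 2.07 and TAPBP at -0.08. With Zizyphi Fructus HLA-B alone lies below, and TAPBP alone above, every vehicle library at all 3 doses.

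Taken as 1 group of 3 against vehicle, the doses of Coptidis Rhizoma gave 0 of 9 members at an adjusted p under 0.05 in edgeR (0.0265% of 15114 genes) and 0 in DESeq2. At an unadjusted p under 0.05 there were 2, TAP1 (1.11 ± 0.45, adjusted p = 0.403) and NLRC5 (1.57 ± 0.50, adjusted p = 0.403). When the spread was estimated from all 60 libraries 6 members were called, a fit that assumes that the 3 doses vary as replicates of other groups do. The share of all genes called in that fit is not given, so the 6 cannot be set against it. With Zizyphi Fructus, the jujube fruit, HLA-B was at 5.98, 3.93 and 3.76 CPM in vehicle libraries and at 3.17, 3.09 and 2.99 CPM at 20, 100 and 500 µg/mL. It lay below every vehicle library at each dose, but the pooled test gave -0.54 ± 0.18 (adjusted p = 0.101), and 0 of 9 members were called by edgeR (2.78% of 15319 genes) or DESeq2. TAPBP lay above every vehicle library at each dose, at 194, 199 and 203 CPM, against 187, 188 and 193 CPM in vehicle libraries. How many of all genes lay outside the vehicle range was not counted. Apart from HLA-B, the members had pooled log2 fold changes from -0.09 for PSMB8 to 0.30 for NLRC5.

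Over the 19 replicated groups together, 7 of 9 members differed somewhere (F test of edgeR's quasi-likelihood fit, adjusted p under 0.05; 16.2% of all genes), TAP1 with the smallest adjusted p (4.09e-06) and PSMB9 next (0.000505). HLA-B (adjusted p = 0.0826) and TAPBP (0.251) did not pass, though both did without the 3 libraries that stood apart (0.00707 and 0.00814). Differences between doses of the same extract were called for B2M (0.0417) and PSMB8 (0.0301), 2 of 9 members (8.64% of all genes). Scutellariae Radix at the high dose had the lowest group mean of HLA-C, B2M, TAP1, TAPBP, PSMB8 and PSMB9. For PSMB8 the 2 lowest groups did not overlap, at 6.75 ± 0.62 CPM with Scutellariae Radix and 8.04 ± 0.54 CPM with Zingiberis Rhizoma Recens, both at the high dose (SD, n = 3 each). For the other 8 members the 2 lowest groups overlapped, as did the 2 highest for all 9. The highest group mean was 3.89 times the lowest for PSMB9, 2.37 times for NLRC5, 2.02 times for PSMB8 and 1.52 times for TAP1, and 1.27 to 1.59 times for the other 5. For PSMB9 the highest group was Bojungikgi-tang at the low dose, with 2.16 and 1.17 CPM (53 and 30 counts). The lowest had 5 to 18 counts a library. For PSMB8 the highest was Scutellariae Radix at the low dose, with 9.77, 9.43 and 21.7 CPM, the last in replicate 3, which stood apart.

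As a description over the 19 group means of log2 CPM, members differed in how closely they followed each other. The groups lie in different code sets, and the part of these sets in the correlations was not tested. B2M and PSMB8 (Pearson r = 0.85) and TAP1 and PSMB9 (0.82) were closest. Both B2M and PSMB8 had their highest mean CPM with Scutellariae Radix at the low dose. There replicate 3, which stood apart, was at 571 CPM of B2M and 21.7 CPM of PSMB8. Correlations without that library, for these and the genes below, were not computed. TAP2 followed TAP1 at 0.52, PSMB8 at 0.005 and B2M at 0.07. The genes most like TAP1 among those above a mean log2 CPM of 2 were DDX58, IFIT3 and MX1, each at 0.91, all interferon-stimulated. For PSMB8 they were TRIM21 (0.92), H2AFJ and RARRES3 (0.89 each), for PSMB9 MMP7, TTC30A and IFI27 (0.91 each), and for B2M PHF11 (0.85), TRIM21 and TRIM38 (0.84 each). The genes most like TAP2 were RELB, an NF-kB subunit (0.84), ICAM1, an adhesion molecule (0.78), and GTPBP2 (0.77). For HLA-B they were ISG15 (0.85), LRG1 (0.81) and OXLD1 (0.79), and for HLA-C LRG1 (0.84), IRF7 and WFDC2 (0.83 each). For NLRC5 they were WDR72 (0.88), IFIH1 and DDX60 (0.85 each), and for TAPBP ADD1 and NOP14-AS1 (0.89 each).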

How the data were processed

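RNA of HT29 cells (1 µg, RNA integrity number above 7) was made into directional libraries and read in 100 bp paired ends, per the labels' protocols. The authors deposited expected counts per gene, which need not be whole numbers: 74.4% to 77.2% of the values above 0 in a library were whole, within 1e-08. FastQC 0.11.9, Trim Galore 0.6.5, STAR 2.7.3a, RSEM 1.3.3 and GRCh38 are named in the submitters' processing notes. Neither names an annotation release or a strand setting. Of 270 columns, 210 that match no sample here were not used. Gene symbols were looked up in GENCODE 29, which held 57055 of the 60675 gene IDs.

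Expected counts were rounded. The 54 libraries of the 19 replicated groups entered 1 fit with edgeR 4.0.16 in R 4.3.3 (TMM scaling, filterByExpr, which kept 16763 genes, and a robust quasi-likelihood fit with 35 residual degrees of freedom). Tests were two-sided, and p-values were Benjamini-Hochberg adjusted over all genes tested, with calls under 0.05. Log2 fold changes have SEs from the F statistic. Extracts with 1 library a dose were described against the vehicle mean on the scale of log2(CPM + 0.5), and their 3 doses were tested as 1 group in a separate fit. Alternatives were DESeq2 1.42.0, its size factors in edgeR, no count filter, HLA-B and HLA-C summed, only the libraries compared, a replicate block and each library left out. Leaving out the 3 libraries that stood apart was added after seeing the data. On simulated counts for Scutellariae Radix at the high dose against vehicle run on 16386 genes, the test called 81% of those given a 1.5-fold and 96% of those given a 2-fold change. Every simulated gene had the same spread, and only genes with a mean above 1 CPM were given a change. These shares are therefore not the power for single members, whose own spread and depth were not simulated.

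Members, lists and comparisons were chosen with earlier results of these data known. Any of the 9 members may be named in a comparison, and those not called are given singly or by their range. From each other list, genes are named from the up to 4 with the smallest p in that comparison, taken over all doses for Coptidis Rhizoma. For each member the 3 genes with the highest correlation over the group means, among those with a mean log2 CPM above 2, are named. A few genes that these rules would name are not reported here. Same-numbered replicates were marked as paired where every correlation of their deviations from the group means, over 11098 genes, was above 0.1. At least 3 pairs were needed, which comparisons with Bojungikgi-tang (2 pairs) could not meet. The rule was met in 2 of 33 comparisons, Pinelliae Tuber low dose against vehicle and dried against fresh ginger at the low dose. The main fit used no pairing in any comparison, these 2 included.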

Additional observations from a re-analysis of the deposited data

Results flagged for a closer look

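The difference between the high and the low dose was not the same for 2 members with Scutellariae Radix and with Pinelliae Tuber, by a test of the interaction itself (edgeR's quasi-likelihood test, adjusted over 16763 genes). For HLA-C the high-minus-low log2 difference with Scutellariae Radix less that with Pinelliae Tuber was -0.56 (SE 0.13, adjusted p = 0.0032), and for PSMB8 it was -0.81 (SE 0.24, adjusted p = 0.0238). HLA-C averaged 43.4 ± 1.71 CPM at the high and 56.6 ± 12.7 CPM at the low dose of Scutellariae Radix, against 54.8 ± 5.73 and 48.5 ± 0.187 CPM with Pinelliae Tuber (SD, n = 3 each). PSMB8 averaged 6.75 ± 0.622 CPM at the high and 13.6 ± 7.01 CPM at the low dose of Scutellariae Radix, against 9.24 ± 1.14 and 10.5 ± 0.306 CPM with Pinelliae Tuber. Low-dose replicate 3 of Scutellariae Radix, at 71.2 CPM of HLA-C and 21.7 CPM of PSMB8, is the highest library in both. Without it the values were -0.36 (adjusted p = 0.0232) for HLA-C and -0.33 (adjusted p = 0.188) for PSMB8, and without high-dose replicate 2 of Scutellariae Radix the PSMB8 call was lost too (-0.74, adjusted p = 0.0700).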

How the results depend on the processing

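Of the 19 calls of single members, 0 reversed sign in any alternative. DESeq2's size factors kept 19 of them, DESeq2 18, the sum of HLA-B and HLA-C counts 18, no count filter 13 and the libraries compared alone 6. Leaving out the 3 libraries that stood apart, added after seeing the data, kept 15, and 7 of the 19 held whichever single library was left out. With no count filter, members called against vehicle numbered 0 for Sayeok-tang (1 in the fit reported), 4 for Zingiberis Rhizoma Recens (1), 1 for Zingiberis Rhizoma (0), 1 for Pinelliae Tuber (0) and 1 for Zizyphi Fructus (0), and 0 between dried and fresh ginger (1). Without the 3 libraries the counts were 3 for Sayeok-tang and 1 for Zingiberis Rhizoma against vehicle, 2 between dried and fresh ginger, and 4 between doses within extracts (2). With only the libraries compared they were 0 for Zingiberis Rhizoma Recens against vehicle, 1 between doses of Bojungikgi-tang (0), 0 between doses of Scutellariae Radix (6) and 0 in its interaction with Pinelliae Tuber (2). These fits have fewer samples. With HLA-B and HLA-C summed the count for Zingiberis Rhizoma Recens was 0, and with all 60 libraries in 1 fit that for Coptidis Rhizoma was 6 (0). The cause was not tested elsewhere. For these fits and those below, the share of all genes called is not given, so counts of members cannot be set against it.

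With 1 library left out at a time, members called against vehicle numbered 0 to 1 for Sayeok-tang, 0 to 4 for Zingiberis Rhizoma Recens, 0 to 2 for Pinelliae Tuber, 2 to 8 for Scutellariae Radix (5) and 0 to 1 for Zizyphi Fructus. Between doses of Pinelliae Tuber they numbered 0 to 1, between dried and fresh ginger 0 to 1, between Scutellariae Radix and Pinelliae Tuber over 3 doses 1 to 5 (3), in their interaction 1 to 3, and between doses within extracts 0 to 5.

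A replicate block for the shared replicate numbers kept 18 of the 19 calls, and members called between Scutellariae Radix and Pinelliae Tuber over 3 doses numbered 2 with it (3). It ended the call of NLRC5 between them at the medium dose (-0.92, adjusted p = 0.0528). Correlations of same-numbered libraries ranged from -0.75 to 0.51, and the labels do not say what a number marks.

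PSMB9 and NLRC5 rest on the fewest counts. The size of difference detectable at their depth was not tested.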
